A study of Mus musculus with 24 samples.

Results

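The Runx transcription factors Runx1, Runx2 and Runx3 and their shared partner Cbfb were described across dental mesenchyme of the mouse mandibular first molar. They are 4 of the 56748 genes in the table of read counts, chosen by name as the complete mouse Runx family and its non-DNA-binding subunit. No measured value was used in the choice, but earlier results of these data were known. The 24 libraries fell into 8 groups of 3. Whole mesenchyme was taken from cap-stage germs (Cap-W, E13) and bell-stage germs (Bell-W, E15) of ICR mice. Other germs of either age were cut so that the lingual and the buccal part gave separate libraries, called Cap-L, Cap-B, Bell-L and Bell-B, and cap-stage parts kept in vitro for 2 days before RNA extraction made up Cap-L+2D and Cap-B+2D. No genotype or drug distinguished the groups. Mesenchyme was freed from epithelium with dispase II after the cut, and the methods name embryos of several pregnant mice and both triplicate sequencing and a smaller number of biological replicates, without tying libraries to animals, so p-values measure the spread between these libraries, which may be technical.

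Runx proteins bind DNA through the Runt domain and turn genes on or off with the help of coactivators such as p300 and corepressors such as the Groucho-related Tle proteins. Cbfb does not touch DNA itself but strengthens binding by whichever Runx protein it joins. Runx2 is required for osteoblast formation, and molars that lack it stop developing early, with Fgf3 lost from their mesenchyme. Runx1 is best known from blood formation, and Runx3 from cytotoxic T cells and proprioceptive sensory neurons.

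Each Runx gene has a distal and a proximal promoter, and the distal promoters of the family share a pair of Runx binding sites. Windows from 250 bases before to 50 bases after a transcription start were read from RefSeq (GRCm38.p6), which gave 6 windows for the 4 genes. They were searched on both strands for the Runx core site ACCACA, whose other strand reads TGTGGT. Stretches of 30 bases from the distal windows are shown because the same pair of sites lies in all 3 Runx genes, printed 5′ to 3′ on the strand of the gene with the sites in capitals:
Runx1: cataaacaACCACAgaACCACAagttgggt
Runx2: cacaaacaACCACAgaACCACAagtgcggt
Runx3: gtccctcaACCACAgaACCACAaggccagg
On GRCm39 these stretches are chr16:92622913-92622942 on the minus strand for Runx1, chr17:45125470-45125499 on the minus strand for Runx2 and chr4:134847814-134847843 on the plus strand for Runx3. The 18 bases from caACC to CAag were identical in all 3. That run was found in 4 of 32851 windows, those of Runx1, Runx2 and Runx3 and of Gm16225, whose window overlaps the distal window of Runx3 on the other strand and so repeats the same bases. The pair began 29 bases after the start in Runx1 and 24 after it in Runx2, but 134 before it in Runx3. No ACCACA lay in the proximal windows of Runx1 and Runx3 or in the window of Cbfb. At least 1 site was present in 16.8% of all windows and at least 2 in 1.81%. A match is a run of letters and not a measured binding event.

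**Figure D1:**
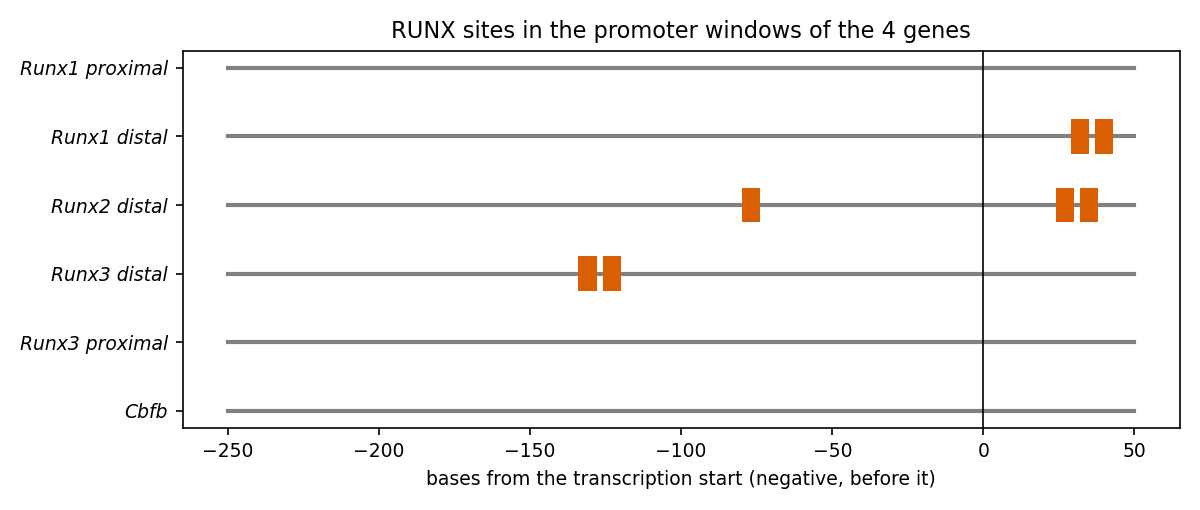
Positions of the ACCACA site (orange, either strand) along the 6 RefSeq promoter windows of the 4 genes, in bases from the transcription start. The Runx2 distal window held 3 sites, the distal windows of Runx1 and Runx3 held 2 each, and the remaining windows held 0.

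The libraries held between 20581720 and 39266497 read pairs assigned to genes, with a median of 27677164. Values are given as normalized CPM, read pairs per 1000000 after TMM scaling over all 24 libraries. All 10 dental mesenchyme markers (Msx1, Pax9, Barx1 and others) were present, with a summed level of 2289 to 4161 CPM over the libraries. Transcripts of other cell types were present too. Summed skeletal muscle markers ranged from 11.8 CPM in Bell-W to 4944 CPM in Cap-B+2D, and summed erythroid markers from at most 41.0 CPM in the cultured groups to 7692 CPM in Bell-W. In whole-tissue RNA, a smaller share of cells that express a gene and less RNA per cell cannot be told apart. Libraries of the cut groups correlated with their group mates at 0.994 to 0.998 (Pearson's r of log2 CPM across genes). Cap-W replicate 1 and Bell-W replicate 3 stood apart, at 0.957 to 0.964 and at 0.951 to 0.958, and 5.39% of the counts of Cap-W replicate 1 were the ribosomal RNA gene Rn18s. Hand2, a marker of mandibular mesenchyme, had a median of 7.93 CPM in Cap-W and was at 1.87 to 3.09 CPM in Bell-L, but at 0 to 0.0319 CPM in Bell-W. Some marker sums of whole mesenchyme lay below both parts of its stage. Summed endothelial markers were at 244 to 254 CPM in Cap-W, 582 to 591 in Cap-L and 510 to 526 in Cap-B. Summed skeletal muscle markers were at 11.8 to 22.4 CPM in Bell-W, 141 to 152 in Bell-L and 1143 to 1173 in Bell-B. Others, such as epithelial markers in Cap-W, overlapped a part. Whole groups thus cannot be read as a mixture of the cut parts. The differences of the Runx genes and named targets between Bell-W and Cap-W are given with and without both libraries, and neighbours in the order of levels where leaving out either changed a call.

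Runx2 was the most abundant Runx gene in every group. It lies at chr17:44806874-45125684 on the minus strand (GRCm39). In Cap-L its normalized levels were 451, 424 and 461 CPM, and in Cap-B 243, 237 and 246 CPM. After 2 days in culture they were 296, 297 and 290 CPM in Cap-L+2D and 127, 125 and 122 CPM in Cap-B+2D. Every Cap-L library was above every other library of the series, and every Cap-B+2D library was below every other. In Bell-L they were 283, 294 and 294 CPM, and in Bell-B 260, 267 and 258 CPM. In the whole mesenchyme they were 225, 254 and 249 CPM in Cap-W and 303, 376 and 238 CPM in Bell-W. Bell-W had the widest spread of any group, 306 ± 69.4 CPM (SD, n = 3), and its lowest library lay within the range of Cap-W. The order of the group means was Cap-L, Bell-W, Cap-L+2D, Bell-L, Bell-B, Cap-W, Cap-B and Cap-B+2D. Of 7 neighbouring pairs in that order, 2 differed in the fit over all 24 libraries, Cap-L above Bell-W (adjusted p = 0.000266) and Cap-B above Cap-B+2D (adjusted p = 2.68e-08), both with edgeR's quasi-likelihood test. Leaving out 1 library at a time, Cap-L stayed above Bell-W by 0.34 to 0.67 on the log2 scale, the smallest value without Bell-W replicate 3. The 5 pairs between them did not pass, with Bell-W above Cap-L+2D depending on Bell-W replicate 3 (log2 0.11, adjusted p = 0.357, against 0.26 and adjusted p = 0.00124 without it) and turning to -0.06 without Bell-W replicate 2. Bell-L above Bell-B was also among these 5 (adjusted p = 0.383, edgeR). It passed in the edgeR fit of those groups alone (adjusted p = 0.000134), with a standard error of 0.03 against 0.09. The fit over all 24 libraries used 1 estimate of the spread, which included the more scattered whole-mesenchyme libraries. A pair that did not pass there can thus still differ in a fit of its own groups.

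Runx1 followed another order. It lies at chr16:92398354-92623037 on the minus strand. Its lowest levels were in Cap-B, at 13.3, 12.0 and 11.6 CPM, and in Bell-B, at 20.6, 19.4 and 18.6 CPM. Its highest were in Cap-L+2D, at 69.1, 72.7 and 68.0 CPM. Between them, Cap-L had 41.5, 39.7 and 38.8 CPM, Bell-L 42.3, 39.0 and 42.0 CPM, and Cap-B+2D 39.6, 40.2 and 38.0 CPM. The libraries of these 3 groups overlapped, and neighbours among them did not differ (adjusted p = 0.724 for Bell-L above Cap-L and 0.71 for Cap-L above Cap-B+2D, edgeR). Whole mesenchyme was at 28.9, 32.3 and 30.8 CPM in Cap-W and at 31.1, 32.3 and 41.9 CPM in Bell-W. The order was Cap-L+2D, Bell-L, Cap-L, Cap-B+2D, Bell-W, Cap-W, Bell-B and Cap-B, and 3 of its 7 neighbouring pairs differed. These were the top pair and the bottom 2 pairs. Cap-B+2D above Bell-W did not pass (log2 0.11, adjusted p = 0.270), but did without Bell-W replicate 3 (log2 0.25, adjusted p = 0.00238).

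Runx3 was the least abundant member in all 24 libraries by CPM, and per kilobase of exon in every group except Cap-B and Bell-B. It lies at chr4:134847963-134905301 on the plus strand. Its highest levels were in Bell-B, at 16.1, 16.2 and 17.0 CPM, followed by Bell-W at 10.8, 12.3 and 12.3 CPM and Bell-L at 9.15, 8.81 and 8.22 CPM. Apart from Cap-W replicate 2, every cap-stage library, cultured or not, was below every bell-stage library. Cap-B was at 7.30, 6.52 and 6.50 CPM, Cap-L at 5.29, 4.52 and 5.15 CPM and Cap-L+2D at 5.99, 6.40 and 5.90 CPM. Its lowest levels were in Cap-B+2D, at 4.17, 4.05 and 4.60 CPM. Cap-W was at 4.14, 9.53 and 5.54 CPM, so that replicate 2 alone lay among the bell-stage values. Of 7 neighbouring pairs, 2 differed, Bell-B above Bell-W (adjusted p = 0.045) and Bell-W above Bell-L (adjusted p = 0.0405). Both calls were near the threshold and were lost in 20 and 14 of 24 fits that left out a library. Cap-L+2D above Cap-L did not pass (adjusted p = 0.188), but did in the edgeR fit of the lingual groups alone (adjusted p = 0.0147). Without Cap-W replicate 1, Bell-L passed above Cap-B (log2 0.37, adjusted p = 0.025) and Cap-W above Cap-L+2D (log2 0.35, adjusted p = 0.0381), and Cap-B over Cap-W turned from 0.03 to -0.18. Without Cap-W replicate 2, Cap-B instead passed above Cap-W (log2 0.43, adjusted p = 0.00646, edgeR) and Cap-W over Cap-L+2D turned to -0.27. Bell-L then also passed above Cap-B (log2 0.37, adjusted p = 0.00572, edgeR), as did Cap-L+2D above Cap-L (log2 0.29, adjusted p = 0.0259, edgeR). The lowest Runx3 count in a library was 78 read pairs, against 3555 for Runx2, so its levels carry the larger counting error.

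Cbfb varied least. It lies at chr8:105897306-105944621 on the plus strand. Its levels were 225, 216 and 216 CPM in Cap-L, 212, 214 and 209 CPM in Cap-L+2D, 172, 174 and 173 CPM in Cap-B and 164, 157 and 149 CPM in Cap-B+2D. At the bell stage they were 138, 142 and 144 CPM in Bell-L and 148, 148 and 143 CPM in Bell-B. Bell-stage parts were thus below all cap-stage parts, whichever side they came from. Whole mesenchyme spread over 233, 163 and 198 CPM in Cap-W and 162, 168 and 126 CPM in Bell-W. The order was Cap-L, Cap-L+2D, Cap-W, Cap-B, Cap-B+2D, Bell-W, Bell-B and Bell-L, and 0 of 7 neighbouring pairs differed in the edgeR fit over all 24 libraries, with 1 at an unadjusted p under 0.05. Cap-B above Cap-B+2D had an adjusted p of 0.215 there, but of 2.66e-05 in the edgeR fit of the buccal groups alone. Cap-W above Cap-B passed without Bell-W replicate 3 (log2 0.23, adjusted p = 0.0273) and was at 0.08 without Cap-W replicate 1 (adjusted p = 0.539).

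**Figure D2:**
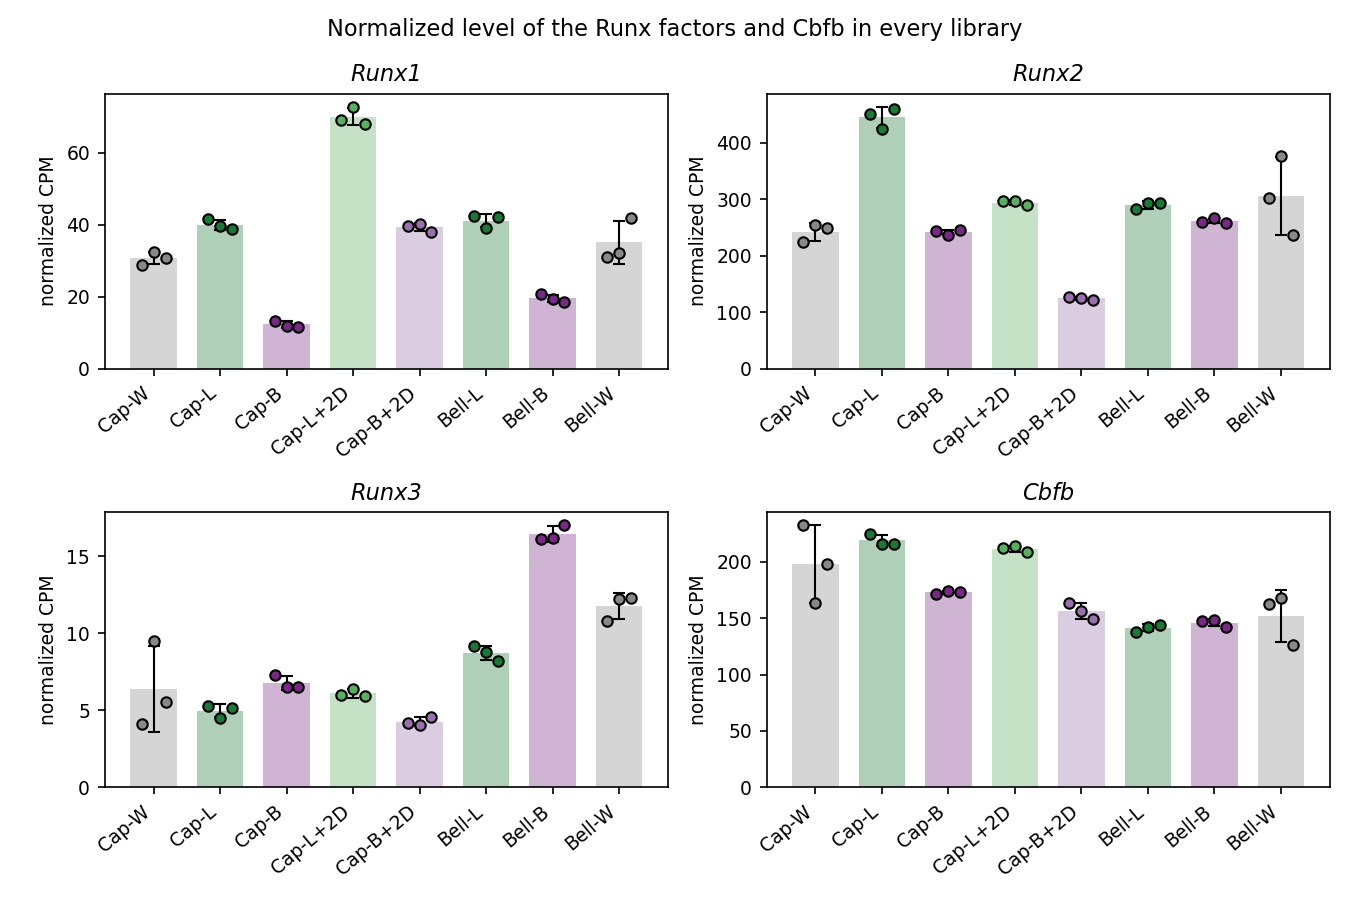
Normalized CPM of each gene (vertical axis, from 0) in the 8 groups, with a point for each of 3 libraries, a bar for the mean and a line for the SD. Runx1 and Runx2 were higher in lingual (green) than in buccal (purple) groups, Runx3 was highest in Bell-B at 16.5 CPM on average, and the widest SD was in Bell-W for Runx1 and Runx2 and in Cap-W for Runx3 and Cbfb.

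At the cap stage, the lingual mesenchyme had more Runx1 and Runx2 than the buccal mesenchyme. Runx1 was 3.20-fold higher in Cap-L (log2 1.68 ± 0.07 SE, adjusted p = 2.75e-13) and Runx2 1.81-fold higher (log2 0.85 ± 0.05, adjusted p = 3.88e-11). Runx3 was lower by 0.47 ± 0.11 on the log2 scale (adjusted p = 0.00154) and Cbfb higher by 0.31 ± 0.04 (adjusted p = 9.07e-06). Those changes are below the limit of 0.5, so 2 of 4 members were called at an adjusted p under 0.05 and a log2 change beyond 0.5 in edgeR's quasi-likelihood test, where 17.5% of 20653 genes were called. No member's Cap-L libraries overlapped its Cap-B libraries, which was the case for 52.2% of genes. The Runx3 value reached -0.517 without Cap-L replicate 1, -0.503 without Cap-L replicate 3 and -0.507 without Cap-B replicate 3, past the limit in each case.

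Bone genes known as Runx2 targets were mostly higher on the lingual side at the cap stage. Of 15 tested, 11 were called higher in Cap-L and 2 lower, with a median log2 change of 1.16 against 0.01 over all genes. Sp7, the zinc-finger factor that acts after Runx2 in osteoblasts, was at 142 ± 2.91 CPM (SD, n = 3) in Cap-L and 62.3 ± 1.61 CPM in Cap-B (log2 1.16, adjusted p = 1.66e-13). Ibsp, which encodes bone sialoprotein, was at 120 ± 2.92 and 35.6 ± 1.02 CPM. In the dental circuit around Runx2, 6 of 18 genes were called higher and 2 lower, and Fgf3 was higher by 1.91 ± 0.15 (adjusted p = 6.56e-09) while Msx1 was not called (-0.10 ± 0.05, adjusted p = 0.151). Among 16 corepressors, Runx1t1 and Cbfa2t3, both of the ETO family, were lower in Cap-L by 1.37 and 1.24 on the log2 scale, Tle1 was lower by 0.78 and Tle4 higher by 0.56. Markers of other cells differed as well. The osteoblast markers here and below include Sp7, Ibsp, Spp1 and Bglap, which are also counted as bone targets. Their sum is thus not independent of the bone target counts. Summed osteoblast markers were at 793 to 806 CPM in Cap-L and 272 to 282 CPM in Cap-B, chondrocyte markers at 368 to 385 and 186 to 189 CPM, epithelial markers at 464 to 511 and 324 to 339 CPM, and skeletal muscle markers at medians of 26.6 and 295 CPM. The part of these cells in the Runx differences was not tested.

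At the bell stage the lingual excess of Runx1 held and that of Runx2 was small. Runx1 was 2.10-fold higher in Bell-L than in Bell-B (log2 1.07 ± 0.05, adjusted p = 1.5e-20) and Runx3 1.89-fold lower (log2 -0.92 ± 0.07, adjusted p = 4.16e-14). Runx2 was 1.11-fold higher (log2 0.15 ± 0.03, adjusted p = 0.000134), below the limit on the fold, and Cbfb did not pass (log2 -0.05 ± 0.03, adjusted p = 0.292). Thus 2 of 4 members were called, with 12.9% of 21181 genes called. The bone targets as a list did not lean to either side, with 3 of 15 called higher, 3 called lower and a median of -0.03. Summed osteoblast markers, which share genes with that list, were at 599 to 628 CPM in Bell-L and 407 to 414 CPM in Bell-B. Of 8 osteoblast markers tested, 3 were called higher and 3 lower. Alpl, an alkaline phosphatase of mineralizing tissue, was at 298 ± 11.2 CPM in Bell-L and 149 ± 1.49 CPM in Bell-B, whereas Spp1, which encodes osteopontin, was lower in Bell-L by 1.60 ± 0.14 on the log2 scale. Fgf3 was lower in Bell-L by 0.70 ± 0.08 (adjusted p = 1.39e-09), the opposite side from the cap stage. Leukocyte markers were higher in Bell-L, at 266 to 273 CPM against 167 to 172 CPM, and sensory neuron markers were higher in Bell-B, at 121 to 125 CPM against 62.2 to 66.0 CPM. Skeletal muscle markers were at 141 to 152 CPM in Bell-L and 1143 to 1173 CPM in Bell-B, with 10 of 10 called lower in Bell-L. Their part in the differences of the Runx genes and bone targets was not tested.

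After 2 days in culture all 3 Runx genes were higher on the lingual side. Runx2 was 2.37-fold higher in the lingual part (log2 1.24 ± 0.04, adjusted p = 8.46e-20), Runx1 1.79-fold higher (log2 0.84 ± 0.05, adjusted p = 3.05e-14) and Runx3 1.43-fold higher (log2 0.52 ± 0.10, adjusted p = 0.000154). Cbfb was higher by 0.44 ± 0.04 (adjusted p = 2.94e-10), below the limit. The 3 of 4 members called compare with 25.1% of 21195 genes. The Runx3 call was near the limit on the fold and was lost without Cap-L+2D replicate 2 (0.482), Cap-B+2D replicate 1 (0.488) or Cap-B+2D replicate 2 (0.488). Of 17 bone targets, 13 were called higher in Cap-L+2D and 0 lower, with a median of 1.56. Ibsp was at 1191 ± 24.4 CPM in Cap-L+2D and 121 ± 4.24 CPM in Cap-B+2D, and Bglap, which encodes osteocalcin, at 35.8 ± 0.701 and 5.62 ± 0.678 CPM. Of 17 genes that oppose Runx2 or mark it for degradation, 9 were also called higher and 1 lower. Msx2, a repressor of Runx2 activity, was higher by 2.83 ± 0.12 and Twist1, which blocks the DNA-binding domain of Runx2, by 0.60 ± 0.04 on the log2 scale. Rb1 and Hipk2, which encode coactivators, were lower by 1.45 and 1.23. Skeletal muscle markers were at 4751 to 4944 CPM in Cap-B+2D and 382 to 410 CPM in Cap-L+2D, epithelial markers at 90.0 to 91.8 and 326 to 357 CPM, and osteoblast markers at 538 to 554 and 2444 to 2471 CPM. Sensory neuron markers were at 217 to 225 CPM in Cap-B+2D and 64.3 to 67.4 CPM in Cap-L+2D, with 8 of 9 called lower in Cap-L+2D and 0 higher. Leukocyte markers were at 320 to 336 CPM in Cap-L+2D and 212 to 225 CPM in Cap-B+2D, with 7 of 10 called higher and 0 lower. Endothelial markers were at 486 to 496 and 206 to 209 CPM, with 9 of 10 called higher and 0 lower. Chondrocyte markers were at 556 to 630 and 244 to 262 CPM, with 6 of 8 called higher and 1 lower. Their part in the Runx differences was not tested.

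**Figure D3:**
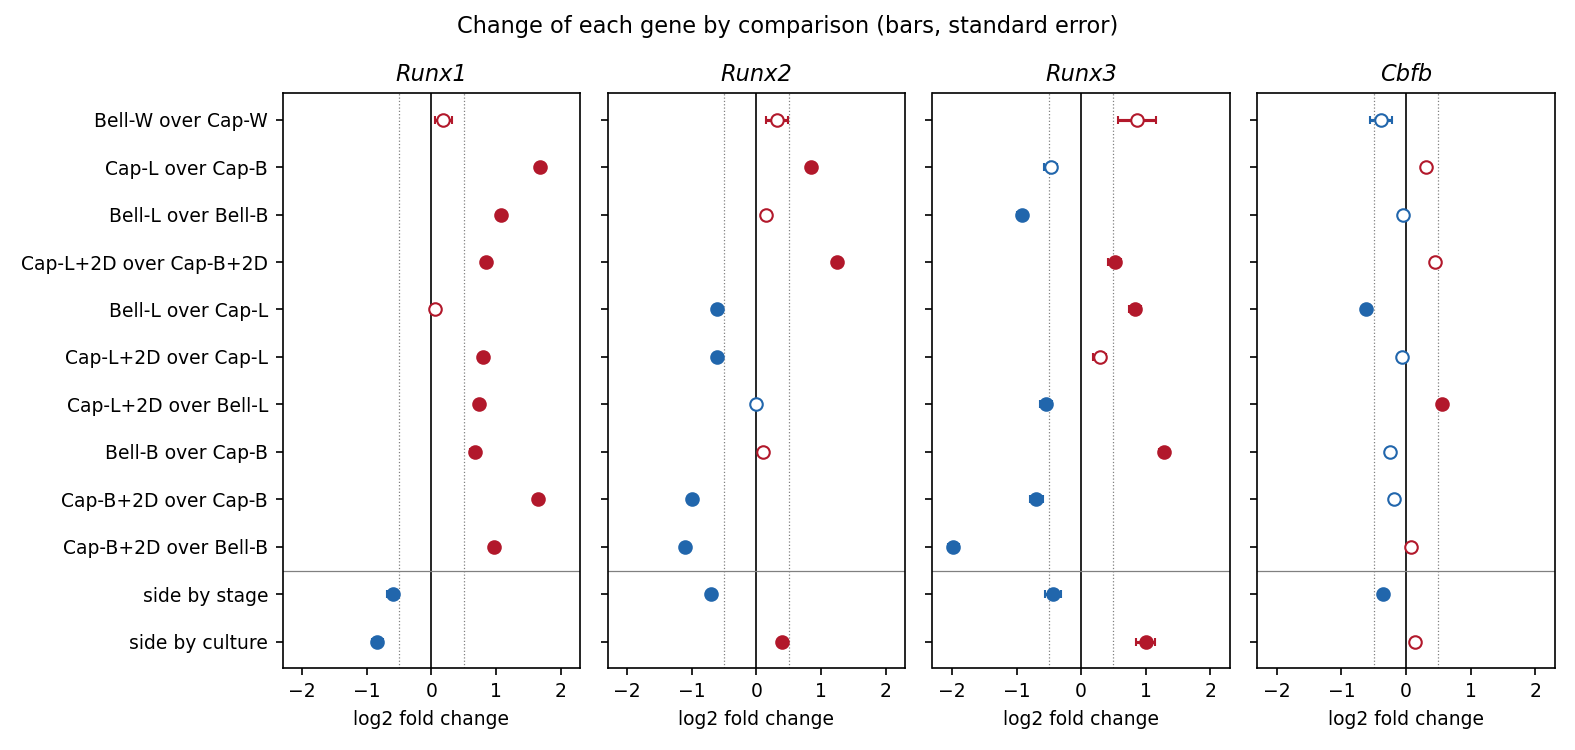
Log2 fold change (horizontal axis) of each gene in 10 comparisons and 2 tests of a difference between differences, with standard errors as bars. Filled points were called, dotted lines mark a log2 change of 0.5 in either direction, and red and blue mark positive and negative values. Runx1 was called on the lingual side in all 3 comparisons of lingual with buccal parts, the largest at 1.68.

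The size of the side difference depended on stage and on culture. The log2 ratio of lingual to buccal was smaller at the bell than at the cap stage by 0.70 ± 0.06 for Runx2 (adjusted p = 2.54e-11) and by 0.60 ± 0.09 for Runx1 (adjusted p = 2.26e-06), in a model with an interaction term. For Cbfb it was lower by 0.36 ± 0.05 (adjusted p = 4.25e-06). For Runx3, which was higher on the buccal side, it became more negative by 0.44 ± 0.12 (adjusted p = 0.00704). All 4 members passed this test, with 32.5% of 21931 genes passing. The Runx3 and Cbfb interactions did not pass when all 24 libraries shared 1 estimate of the spread (adjusted p = 0.234 and 0.0987). Of 15 bone targets, 11 also had a smaller lingual-to-buccal ratio at the bell stage and 3 a larger one, with a median of -0.98. Sp7 was among the 11, by 0.98 ± 0.06 (adjusted p = 1.71e-14). Between fresh and cultured cap parts, the ratio was lower after culture for Runx1 by 0.83 ± 0.08 (adjusted p = 7.82e-10), and higher for Runx2 by 0.39 ± 0.06 (adjusted p = 1.47e-06) and for Runx3 by 1.00 ± 0.15 (adjusted p = 2.27e-06). Cbfb did not pass (0.13 ± 0.06, adjusted p = 0.0677). So 3 of 4 members passed, with 35.5% of 22098 genes passing, and the Runx2 value did not pass in the fit over all libraries (0.36, adjusted p = 0.0726).

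On the lingual side, the bell stage had less Runx2 and Cbfb and more Runx3 than the cap stage. Runx2 fell by 0.60 ± 0.04 on the log2 scale in Bell-L against Cap-L (adjusted p = 1.68e-11) and Cbfb by 0.62 ± 0.04 (adjusted p = 4.06e-12), while Runx3 rose by 0.83 ± 0.10 (adjusted p = 8.10e-08). Runx1 did not pass (0.06 ± 0.05, adjusted p = 0.389). The 3 members called compare with 20.0% of 21425 genes. Sp7 was lower in Bell-L by 0.87 ± 0.04 (adjusted p = 9.86e-15), and the bone targets as a list went both ways, with 5 of 17 called higher, 7 lower and a median of -0.15. Of 15 coactivators, 1 was called higher and 1 lower, and Kat2b, an acetyltransferase gene, was the one called higher, by 0.52 on the log2 scale. All 10 leukocyte markers were called higher in Bell-L, with sums of 266 to 273 CPM against 78.8 to 86.0 CPM, and so were all 10 skeletal muscle markers, at 141 to 152 CPM in Bell-L and a median of 26.6 CPM in Cap-L. Osteoblast markers were at 599 to 628 CPM in Bell-L against 793 to 806 CPM, with 7 of 10 called lower and 1 higher, and chondrocyte markers at 109 to 115 CPM against 368 to 385 CPM, with 4 of 8 called lower and 2 higher. The part of these cell types in the differences of Runx2, Runx3, Cbfb and the bone targets was not tested.

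On the buccal side, the bell stage had more Runx1 and Runx3. Runx3 was 2.43-fold higher in Bell-B than in Cap-B (log2 1.28 ± 0.08, adjusted p = 3.66e-15) and Runx1 1.59-fold higher (log2 0.67 ± 0.07, adjusted p = 3.46e-10). Runx2 was higher by only 0.11 ± 0.03 (adjusted p = 0.00447) and Cbfb lower by 0.25 ± 0.03 (adjusted p = 2.87e-07), both below the limit. The 2 members called compare with 18.7% of 21992 genes. Of 17 bone targets, 7 were called higher in Bell-B and 1 lower, with a median of 0.64 against 0.005 over all genes. In the dental circuit, 9 of 18 genes were called higher and 1 lower. Fgf3 rose from 1.60 ± 0.140 to 13.8 ± 1.36 CPM and Sostdc1, an antagonist of Bmp and Wnt signals, was higher by 2.26 ± 0.04. Runx1t1 fell by 1.05 ± 0.04 and Twist1 by 0.58 ± 0.03 on the log2 scale. Of 16 genes known as Runx1 or Runx3 targets in blood and nerve, 10 were called higher and 0 lower, among them Ntrk3, the receptor of proprioceptive neurons that depend on Runx3 (log2 1.70 ± 0.04), and Csf1r, a macrophage receptor under Runx1 control (log2 0.95 ± 0.06). This list was also mostly higher where a Runx gene was not. In Bell-L against Cap-L, where Runx1 did not pass, 10 of 15 were called higher and 2 lower. In Cap-B+2D against Cap-B, where Runx3 fell, 10 of 16 were called higher and 2 lower. Leukocyte markers were at 167 to 172 CPM in Bell-B and 82.0 to 91.0 CPM in Cap-B, with 9 of 10 called higher. Sensory neuron markers were at 121 to 125 and 50.3 to 50.4 CPM, with 4 of 10 called higher and 1 lower. Csf1r and Ntrk3 are themselves in the leukocyte and sensory neuron lists. Skeletal muscle markers were at 1143 to 1173 and 281 to 300 CPM, with 10 of 10 called higher. Epithelial markers were at 558 to 578 and 324 to 339 CPM, with 9 of 10 called higher. Osteoblast markers were at 407 to 414 and 272 to 282 CPM, with 4 of 10 called higher and 0 lower. Their part was not tested.

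In culture, Runx1 rose and Runx2 fell on both sides. In Cap-L+2D against Cap-L, Runx1 was 1.74-fold higher (log2 0.80 ± 0.05, adjusted p = 3.23e-13) and Runx2 1.52-fold lower (log2 -0.61 ± 0.04, adjusted p = 5.75e-12). In Cap-B+2D against Cap-B, Runx1 was 3.12-fold higher (log2 1.64 ± 0.06, adjusted p = 8.16e-22) and Runx2 1.99-fold lower (log2 -0.99 ± 0.03, adjusted p = 2.48e-23). Runx3 fell on the buccal side by 0.70 ± 0.10 (adjusted p = 2.35e-07) and was higher by 0.29 ± 0.10 on the lingual side (adjusted p = 0.0147, below the limit). Cbfb was lower by 0.06 ± 0.04 on the lingual side (adjusted p = 0.230) and by 0.18 ± 0.03 on the buccal side (adjusted p = 2.66e-05, below the limit). On the lingual side 2 of 4 members were called, with 35.4% of genes called, and on the buccal side 3 of 4, with 34.5% called.

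Bone targets were higher after culture although Runx2 was lower. On the lingual side 12 of 17 were called higher and 2 lower, with a median of 1.75, and on the buccal side 12 higher and 2 lower, with a median of 1.03. Spp1 went from 2.62 ± 0.324 to 183 ± 3.11 CPM in the lingual part and from 0.732 ± 0.166 to 105 ± 1.79 CPM in the buccal part. Mmp13, a collagenase of late bone cells, went from 1.69 ± 0.188 to 63.4 ± 2.59 CPM and from 0.244 ± 0.141 to 19.8 ± 0.725 CPM. Sp7 went the other way and was lower by 0.28 ± 0.04 (adjusted p = 2.14e-06) in the lingual part, below the limit, and by 0.67 ± 0.04 (adjusted p = 1.09e-15) in the buccal part. Among coactivators, Wwtr1, which encodes TAZ, rose by 1.29 and 0.90 on the log2 scale and Hipk2 fell by 1.77 and 0.92. Among antagonists, Sox9 rose by 1.56 and 1.75 and Hes1, a target of Notch signals, by 1.05 and 1.08. Sox9 is itself in the chondrocyte list. Summed chondrocyte markers were at 368 to 385 CPM in Cap-L and 556 to 630 CPM in Cap-L+2D, with 5 of 8 called higher and 2 lower. On the buccal side they were at 186 to 189 CPM in Cap-B and 244 to 262 CPM in Cap-B+2D, with 3 of 8 called higher and 2 lower. Leukocyte markers rose to 320 to 336 CPM in Cap-L+2D and 212 to 225 CPM in Cap-B+2D, with 10 and 9 of 10 markers called higher, while the summed erythroid markers were at most 41.0 CPM in either. All 10 skeletal muscle markers were called higher on both sides, with sums of 382 to 410 CPM in Cap-L+2D (median 26.6 CPM in Cap-L) and 4751 to 4944 CPM in Cap-B+2D (median 295 CPM in Cap-B). Osteoblast markers were at 793 to 806 CPM in Cap-L and 2444 to 2471 CPM in Cap-L+2D, with 8 of 10 called higher, and at 272 to 282 CPM in Cap-B and 538 to 554 CPM in Cap-B+2D, with 7 higher and 1 lower. Epithelial markers were at 326 to 357 CPM in Cap-L+2D and 90.0 to 91.8 CPM in Cap-B+2D, with 6 and 9 of 10 called lower and 1 higher on each side. Endothelial markers were at 486 to 496 and 206 to 209 CPM, with 3 and 10 of 10 called lower and 1 and 0 higher. Sensory neuron markers were at 50.3 to 50.4 CPM in Cap-B and 217 to 225 CPM in Cap-B+2D, with 7 of 10 called higher and 2 lower. On the lingual side they were at 37.3 to 37.8 CPM in Cap-L and 64.3 to 67.4 CPM in Cap-L+2D, with 4 of 9 called higher and 4 lower. The part of these cell types in the changes of the Runx genes and bone targets was not tested. Time out of the embryo, culture and age cannot be told apart in these comparisons.

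The cultured cap parts were also set beside the bell-stage parts. For Runx2 the lingual parts were level, with 294 ± 3.95 CPM in Cap-L+2D and 290 ± 6.56 CPM in Bell-L (log2 -0.00 ± 0.04, adjusted p = 0.940), whereas the buccal part was 2.14-fold lower in Cap-B+2D than in Bell-B (log2 -1.10 ± 0.03, adjusted p = 1.26e-24). Runx1 was higher in culture by 0.74 ± 0.05 on the lingual side (adjusted p = 2.12e-12) and by 0.97 ± 0.05 on the buccal side (adjusted p = 4.98e-17). Runx3 was lower in culture by 0.54 ± 0.09 on the lingual side (adjusted p = 1.97e-05) and 3.93-fold lower on the buccal side (log2 -1.98 ± 0.08, adjusted p = 2.35e-20). Cbfb was higher by 0.56 ± 0.04 on the lingual side (adjusted p = 1.47e-11) and did not pass on the buccal side (0.07 ± 0.03, adjusted p = 0.0744). On each side 3 of 4 members were called, with 31.2% of genes called on the lingual and 31.8% on the buccal side. Bone targets were higher in Cap-L+2D than in Bell-L for 16 of 17 genes and lower for 1, with a median of 1.97. On the buccal side 9 were higher and 3 lower, with a median of 0.63, and Fgf3 fell by 5.33 ± 0.17 on the log2 scale (adjusted p = 1.80e-23), to 0.335 ± 0.207 CPM. Skeletal muscle markers were at 4751 to 4944 CPM in Cap-B+2D against 1143 to 1173 CPM in Bell-B, with 10 of 10 called higher in culture, and sensory neuron markers at 217 to 225 against 121 to 125 CPM, with 7 of 10 called higher and 1 lower. Epithelial markers were at 90.0 to 91.8 against 558 to 578 CPM and endothelial markers at 206 to 209 against 650 to 663 CPM, with 9 and 10 of 10 called lower. On the lingual side 10 of 10 osteoblast markers were called higher in Cap-L+2D, at 2444 to 2471 against 599 to 628 CPM, and 10 of 10 skeletal muscle markers, at 382 to 410 against 141 to 152 CPM. Their part in these differences was not tested.

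**Figure D4:**
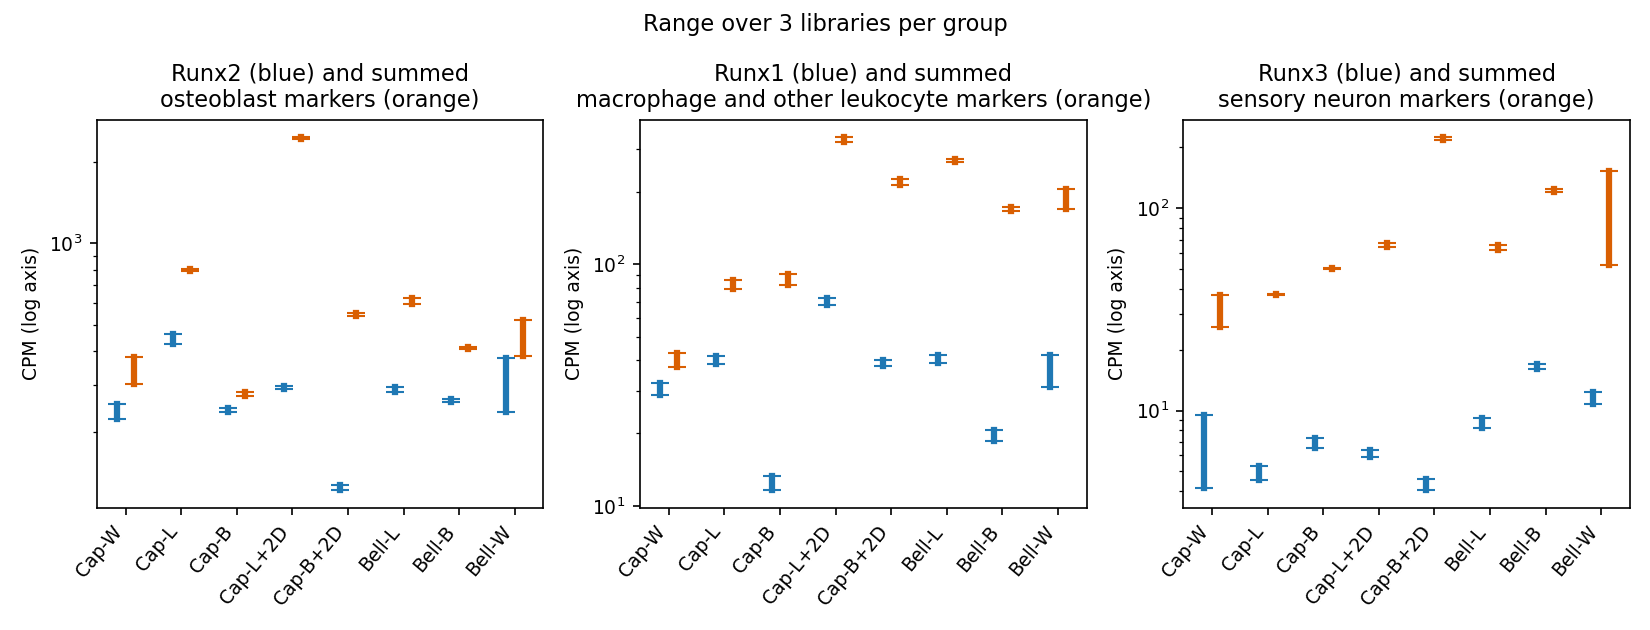
Ranges over 3 libraries per group, on log axes in CPM, of a Runx gene (blue) and of a summed list of 10 cell type markers (orange). Summed osteoblast markers were highest in Cap-L+2D, at 2444 to 2471 CPM, where Runx2 was at 290 to 297 CPM, while Runx2 was highest in Cap-L. The osteoblast markers include Sp7, Ibsp, Spp1 and Bglap, which are also counted as bone targets of Runx2.

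Between the whole mesenchyme of the stages, 0 of 4 members were called in Bell-W against Cap-W, with 14.5% of 20940 genes called. At an unadjusted p under 0.05 edgeR had 1 member, Runx3, whose libraries did not overlap, as for 36.3% of genes (log2 0.87 ± 0.29, adjusted p = 0.0871). DESeq2 called Runx3 (log2 0.87, adjusted p = 0.0282), and edgeR called it without Cap-W replicate 2 (log2 1.26, adjusted p = 0.0174). Runx1 was higher by 0.19 ± 0.14 (adjusted p = 0.409), Runx2 by 0.33 ± 0.17 (adjusted p = 0.249) and Cbfb lower by 0.39 ± 0.17 (adjusted p = 0.183). With Cap-W replicate 1 and Bell-W replicate 3 both left out, Runx2 was higher by 0.46 ± 0.10 (adjusted p = 0.0134), still below the limit, Runx3 by 0.63 ± 0.23 (adjusted p = 0.0762), Runx1 by 0.03 ± 0.08 and Cbfb lower by 0.10 ± 0.11. Among the bone targets, 9 of 15 were called higher in Bell-W and 1 lower, with a median of 1.22, and 10 and 1 without those libraries. Ibsp was at 4.33 ± 4.01 CPM in Cap-W and 79.8 ± 30.3 CPM in Bell-W, and Fgf3 at 0.597 ± 0.374 and 30.9 ± 5.78 CPM. Without those libraries Ibsp was higher by 3.84 ± 0.41 (adjusted p = 0.000557) and Fgf3 by 5.16 ± 0.23 (adjusted p = 1.92e-05) on the log2 scale. Of the coactivators 1 was called higher and 6 lower, and 1 and 5 without those libraries. The acetyltransferase genes Ep300 and Crebbp both had a log2 change of -0.89, and of -0.89 and -0.82 without those libraries. Leukocyte markers were at 37.7 to 42.8 CPM in Cap-W and 169 to 204 CPM in Bell-W, and epithelial markers at 367 to 548 and 481 to 1915 CPM. Their part was not tested.

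Per kilobase of exon, Runx2 made up most of the Runx transcripts in every group. The exon length was 8837 bases for Runx2, 12025 for Runx1, 5003 for Runx3 and 3480 for Cbfb. The share of Runx2 in the sum of the 3 Runx genes was 92.1% ± 0.314 (SD, n = 3) in Cap-L and 92.0% ± 0.495 in Cap-B, and was lowest in Cap-B+2D at 77.4% ± 0.261. The share of Runx1 was lowest in Cap-B at 3.43% ± 0.225 and highest in Cap-B+2D at 17.9% ± 0.320. The share of Runx3 ran from 1.82% ± 0.0879 in Cap-L to 9.53% ± 0.376 in Bell-B, and in Cap-B, Bell-B and no other group it was above that of Runx1. The ratio of Runx2 to Runx1 per exon length was 26.9 ± 1.90 in Cap-B and 4.33 ± 0.0796 in Cap-B+2D. The summed Runx level was below that of Cbfb in all 8 group means, with ratios from 0.406 ± 0.0125 in Cap-B+2D to 0.936 ± 0.00656 in Bell-L. These ratios compare transcripts and not proteins.

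**Figure D5:**
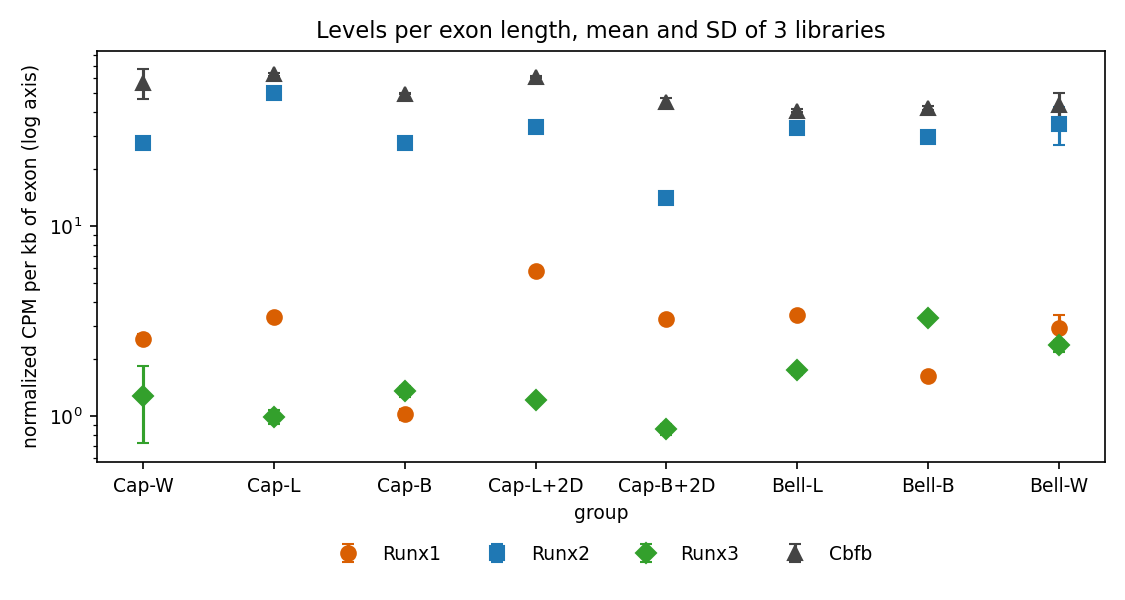
Normalized CPM per kilobase of exon on a log axis, mean and SD of 3 libraries per group. Cbfb was highest in every group, Runx2 lay below it, and Runx1 and Runx3 crossed, with Runx3 above Runx1 in Cap-B and Bell-B.

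Genes on the other strand share little sequence with the members. The count did not use strand, so read pairs in shared exon bases cannot be given to a strand. The antisense gene Runx2os1 overlapped 519 exon bases of Runx2 (5.87%) and Gm26626 overlapped 106 exon bases of Runx1 (0.881%), while no gene shared exon bases with Runx3 or Cbfb. Runx2os1 was at 0.128 to 1.40 CPM over the libraries, highest in Bell-W at 0.797 to 1.40 CPM. Gm26626 stayed at or below 0.708 CPM.

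The genes most like each member over the 8 group means were named by Pearson's r of log2 CPM among 14334 genes, as a description with no test. For Runx1 they were Gspt2 (0.982), Fam43a (0.972) and 4930519F09Rik (0.971). Fam43a was lowest in Cap-B at 7.88 ± 0.786 CPM and highest in Cap-L+2D at 75.0 ± 2.76 CPM, as Runx1 was. For Runx2 they included Rps6ka1 (0.960) and Prr5l (0.948). They were for Runx3 Lipo3 (0.974), Arpin (0.929) and Cox4i2 (0.929), and for Cbfb Per3 (0.980), Pard6g (0.975) and Txnrd3 (0.962). Between the members themselves, r ran from -0.611 for Runx3 and Cbfb to 0.404 for Runx2 and Cbfb. The named genes were picked for the highest r, so these values cannot be judged against theirs. The 8 points of a pair share libraries and depth.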

How the data were processed

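RNA-seq of mouse molar mesenchyme was analysed from 1 deposited table of counts, whole-number read pairs per gene that the authors made, per the file headers, with featureCounts v2.0.0 on exons of the GRCm39 Ensembl 107 annotation, without strand and without pairs that fit several genes or places. The submitters' processing notes name Trimmomatic 0.39, Bowtie 1.2.3, Subread 2.0.3 and DESeq2 1.40.2, whereas the study's methods name the STAR aligner, and labels and methods also name different library kits, so the kit and aligner are uncertain. Symbols were matched by identifier for 56017 of 56748 genes. The 4 genes and all lists were chosen with earlier results of these data known.

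Changes were tested with edgeR 4.0.16 in R 4.3.3 (TMM, filterByExpr, quasi-likelihood F test), with Benjamini-Hochberg adjustment over all genes tested. Lingual and buccal parts, stages and culture were compared in 10 comparisons and 2 interaction tests. A gene was called at an adjusted p under 0.05 and a log2 change beyond 0.5, for interactions and the order of levels at the adjusted p alone. The standard error is the log2 change over the square root of F. Named genes were the 4 members, antisense neighbours, Sp7, Fgf3, Msx1, Twist1 and Runx1t1 in every comparison, up to 4 called genes of largest change per list and comparison with a mean of at least 1 CPM, and the 3 genes most like each member among those with at least 4 CPM. Some of these are not reported here. The procedure was tested on simulated data with 200 changed genes. Alternatives included DESeq2 1.42.0. Leaving out both whole-mesenchyme libraries that stood apart was chosen after seeing the data. Totals of 20581720 to 39266497 counts per library set the counting error.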

Additional observations from a re-analysis of the deposited data

Results flagged for a closer look

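The ratio of lingual to buccal level differed between stages or between fresh and cultured parts by a test of an interaction term in edgeR, which is what singled out the following results. Between the stages (bell minus cap, log2), the difference was -0.60 for Runx1, -0.70 for Runx2, -0.44 for Runx3 and -0.36 for Cbfb. Among the other genes named in every comparison it was -0.98 for Sp7, -2.60 for Fgf3, 0.35 for Twist1 and 0.97 for the corepressor gene Runx1t1. Between cultured and fresh cap parts (cultured minus fresh, log2), it was -0.83 for Runx1, 0.39 for Runx2 and 1.00 for Runx3. It was 0.40 for Sp7, 2.26 for Fgf3, 0.47 for Msx1, 0.77 for Twist1 and 0.27 for Runx1t1. Of all genes, 32.5% passed the test by stage and 35.5% the test by culture. Both tests use the same Cap-L and Cap-B libraries.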

How the results depend on the processing

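Changes of the 4 genes were recomputed with RLE normalization, with DESeq2, with no filter on low counts, with at least 10 counts in every library, without the 100 most abundant genes, with all 24 libraries in 1 fit and with the replicate number as a block. Runx2 in Cap-L+2D against Bell-L, which was near 0 and not called, changed sign to 0.0104 with RLE, 0.0107 with DESeq2, 0.0191 with no filter and 0.0117 without the most abundant genes. Runx3 in Bell-W against Cap-W was called by DESeq2 (0.873), with no filter (0.891) and with all 24 libraries in 1 fit (0.868). In that last fit the differences by side lost their call for Runx2 and culture (0.359), Runx3 and stage (-0.468) and Cbfb and stage (-0.384). Msx1 by stage, not called, turned to -0.00709 with no filter. All other changes of the 4 genes under these alternatives kept their direction and their side of the threshold. Counts of called bone targets stayed within 1.5 times under RLE, DESeq2 and both other filters, which were the alternatives run for the lists. The causes were not tested. The fit over all 24 libraries called 5887 genes between the whole-mesenchyme groups in place of 3037, 2581 by side and stage in place of 7137, and 4048 by side and culture in place of 7842. In the order of levels, RLE turned Cap-L+2D over Bell-L for Runx2 to 0.0157 and Cap-B+2D over Bell-W for Cbfb to 0.0286, and Bell-W over Bell-L for Runx3 lost its call (0.446). 

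Leaving out each library in turn gave these ranges where a call or a sign changed. Runx2 Cap-L+2D over Bell-L ranged from -0.0276 to 0.0106. Runx3 Bell-W over Cap-W ranged from 0.64 to 1.26. Runx3 Cap-L over Cap-B ranged from -0.517 to -0.387. Runx3 Cap-L+2D over Cap-B+2D ranged from 0.482 to 0.577. Cbfb side by culture ranged from 0.102 to 0.154. Between neighbours in the order, the ranges were -0.0236 to 0.0144 for Runx2 in Cap-L+2D over Bell-L, 0.0322 to 0.246 for Runx1 in Cap-B+2D over Bell-W, -0.14 to 0.0559 for Cbfb in Cap-B+2D over Bell-W, 0.0631 to 0.276 for Runx1 in Bell-W over Cap-W, -0.0644 to 0.263 for Runx2 in Bell-W over Cap-L+2D, 0.0752 to 0.366 for Cbfb in Cap-W over Cap-B, 0.397 to 0.474 for Runx3 in Bell-B over Bell-W, 0.426 to 0.516 for Runx3 in Bell-W over Bell-L, 0.338 to 0.433 for Runx3 in Bell-L over Cap-B, -0.182 to 0.43 for Runx3 in Cap-B over Cap-W, -0.269 to 0.35 for Runx3 in Cap-W over Cap-L+2D, 0.214 to 0.33 for Runx3 in Cap-L+2D over Cap-L, -0.0833 to 0.199 for Cbfb in Cap-L+2D over Cap-W. With only the exon bases that no other gene shares as the length, values per length moved by more than the SD between libraries in 20 of 40 cases, by construction because the length of Runx2 is smaller. The Runx1 share in percent became 7.8 in Cap-W, 13.8 in Cap-L+2D, 17.2 in Cap-B+2D. The Runx2 share in percent became 92.5 in Cap-L, 83.3 in Cap-L+2D, 78.3 in Cap-B+2D, 86.5 in Bell-B. The Runx3 share in percent became 1.72 in Cap-L, 2.87 in Cap-L+2D, 9.04 in Bell-B. The summed Runx level over Cbfb became 0.92 in Cap-L, 0.634 in Cap-B, 0.698 in Cap-L+2D, 0.426 in Cap-B+2D, 0.987 in Bell-L, 0.867 in Bell-B. Runx2 over Runx1 became 11.3 in Cap-W, 6.03 in Cap-L+2D, 4.56 in Cap-B+2D, 19.2 in Bell-B. 

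The methods do not state whether replicate numbers pair libraries of different groups. Deviations of same-numbered libraries correlated at -0.328 to 0.338, and all libraries matched their own number best in 2 of 10 comparisons, a hint from the data and not from the design. With the replicate number as a block, no call of the 4 genes changed, with Runx1 at 1.68 in Cap-L against Cap-B and Runx3 at 0.95 in Bell-W against Cap-W (adjusted p = 0.0513, edgeR). Depth limited Runx3 most, with 78 to 513 read pairs a library.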
